A study of Homo sapiens with 6 samples.

Results

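The genes described here are the transcription factor NRF2 with its partners and regulators, its best known target genes, and the enzymes of the glutathione and thioredoxin systems. They were taken from a list of 56 gene symbols, each matched to the array annotation and read on 1 probe set that carries that symbol alone. Of the 56 listed genes, 51 were measured in this way, among 18417 genes tested on the arrays. MAFK, GGT1, PRDX5 and FTH1 had no such probe set and were not analysed here, and the CBS probe set carries a second symbol, so CBS is not counted either.

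MDA-MB-231 is an established human cell line of triple-negative breast cancer, a type that lacks the oestrogen and progesterone receptors and amplified HER2. The series compares 3 control cultures of this line with 3 cultures given EC-70124, a compound that inhibits several protein kinases, at 500 nM for 24 h. Total RNA of each culture was hybridised to 1 gene expression array, and the study's methods call the samples independent. A single cell line, dose and time were used, so the values below describe that line at that time.

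NRF2, encoded by NFE2L2, is held in the cytoplasm and sent for degradation by KEAP1 until oxidants or electrophiles modify KEAP1. It then enters the nucleus, pairs with a small MAF protein and binds antioxidant response elements, where BACH1 can act as a competing repressor. Its targets make and recycle glutathione, reduce thioredoxin, reduce quinones, break down haem and supply NADPH, and many tumour cells rely on them to tolerate oxidants and drugs. NRF2 is controlled largely through the stability and location of its protein, which these arrays do not measure.

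All levels below are array intensities as normalized by the authors, and a log2 change is the mean log2 intensity of the EC-70124 arrays minus that of the control arrays. A gene is said to have risen or fallen where its p-value from limma, after Benjamini-Hochberg adjustment across every gene tested, was under 0.05. Probe sets differ in how brightly they hybridise, so levels are compared between arrays and not between genes. In RNA from a whole culture, fewer cells expressing a gene and less of its RNA per cell cannot be told apart.

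The 3 EC-70124 arrays were less alike than the controls. Over the 18417 genes tested the correlation of log2 intensities was 0.9962 to 0.9979 between control arrays. Between EC-70124 arrays it was 0.9933, 0.9943 and 0.9972, the lower values being those of replicate 3 with the others. EC-70124 replicate 3 was the array farthest from its group's median for 34 of the 51 members, and without it 10 members rose and 12 fell in place of the 8 and 11 given below. Markers of the cell line were present, with VIM at 12837 to 13991 and CD44 at 7886 to 10197 over the 6 arrays. Of the 8 luminal epithelial markers, ESR1 was at 183 to 233, PGR at 149 to 176, CDH1 at 152 to 188, EPCAM at 352 to 437 and GATA3 at 507 to 745. FOXA1 was at 816 to 942, ERBB2 at 1442 to 1566 and KRT19 at 2159 to 3879. Of the leukocyte markers, PTPRC was at 78.6 to 105, CD3E at 166 to 227, CD14 at 452 to 573 and ITGAM at 479 to 731. The measured endothelial markers were at 185 to 328 with none past the test. Of the marker lists, 3 of 5 cell line markers fell, 2 of 8 luminal epithelial markers rose and 1 fell, and 1 of 5 leukocyte markers, CD68 at 6255 to 9301, fell, and their part in the results below was not tested.

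The members moved both ways. Of the 51 measured members, 8 rose, 11 fell and 32 did not pass the test. Over all 18417 genes tested, 34.5% passed, with 19.7% higher and 14.8% lower. The members' shares were 37.3% in either direction, 15.7% higher and 21.6% lower. The 3 control and 3 EC-70124 values did not overlap for 34 members (66.7%), against 47.6% of all genes tested. The median log2 change of the members was -0.04 beside 0.00 for all genes, and their changes ran from -0.69 for AKR1C3 to 0.85 for TXNRD2. No member reached a 2-fold change, and 497 called genes of the 18417 tested did. At so small a share, 51 genes could hold few or none. At least 1.5-fold changes were called for 4 members (7.84%), against 9.66% of all genes tested, a similar share. These members were NFE2L2, OSGIN1 and TXNRD2 upward and AKR1C3 downward. More members fell than rose under each scaling, with 7 higher and 15 lower after quantile normalization and after cyclic loess. Over all genes 3631 rose and 2722 fell, against 3112 and 3527 after quantile normalization and 3315 and 3121 after cyclic loess.

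**Figure D1:**
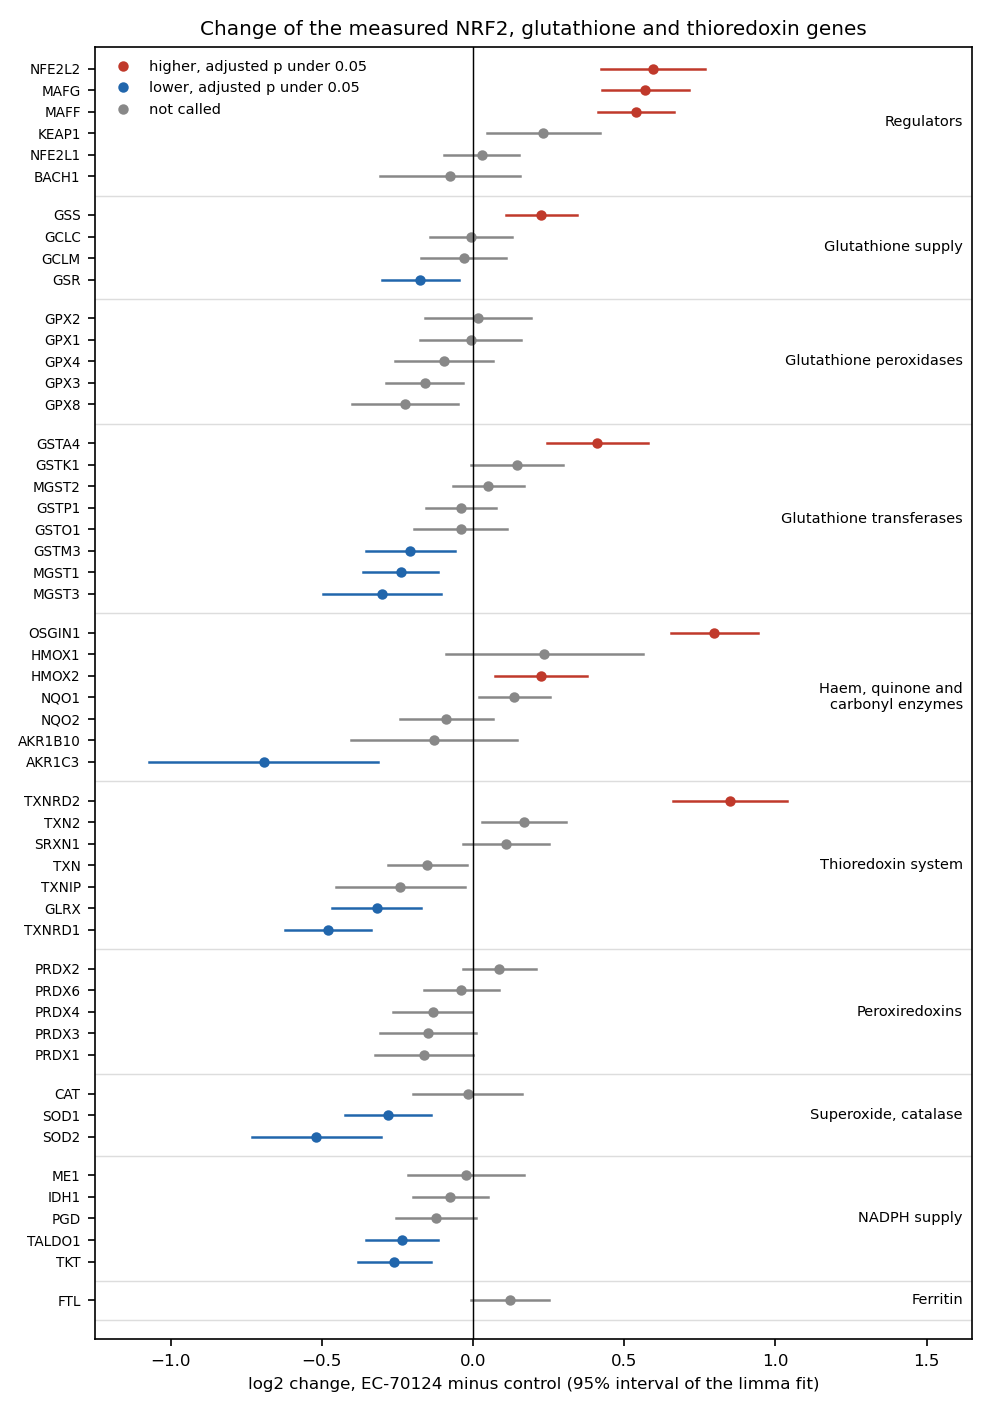
Log2 change of each measured member between the 3 EC-70124 and the 3 control arrays, with its 95% interval, grouped by role. Most points lie close to 0. TXNRD2 and OSGIN1 lie farthest to the right at 0.85 and 0.80, and AKR1C3 farthest to the left at -0.69.

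**Figure D2:**
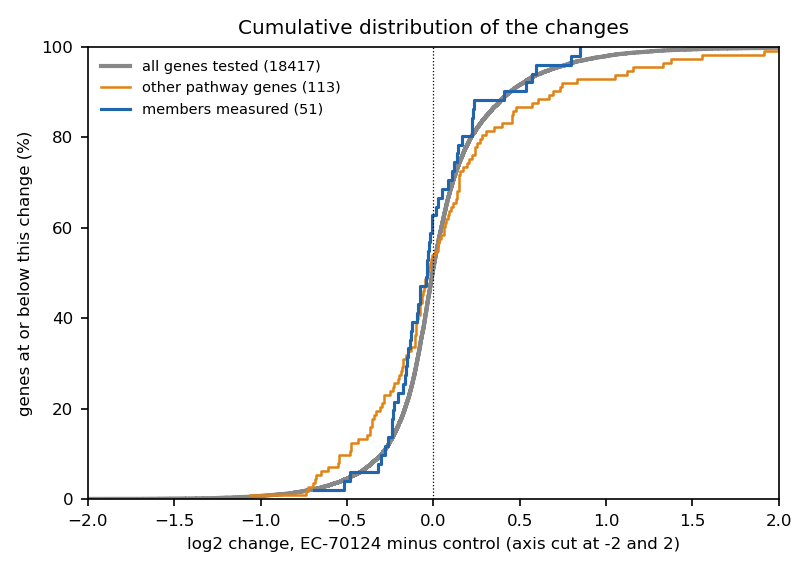
Cumulative percentage of genes against log2 change, drawn between -2 and 2, for the 51 members, the 113 other pathway genes and all 18417 genes tested. The members' curve crosses its median at -0.04 and stays within -0.69 to 0.85, while the other pathway genes reach from -1.06 to 2.95, past the right edge.

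Among the regulators, the message for NRF2 and those for the small MAF proteins rose together. NFE2L2 was at 4216, 4458 and 4459 on the control arrays and 6935, 6987 and 5953 on the EC-70124 arrays, means of 4378 ± 140.2 and 6625 ± 582 (SD, n = 3 each). Every EC-70124 value lay above every control value, with replicate 3 the lowest of the treated arrays. The rise was 1.51-fold, a log2 change of 0.59 (SE 0.07, 95% interval 0.42 to 0.77, adjusted p = 0.000484). NFE2L1, which encodes the related factor NRF1 that controls proteasome genes, had a log2 change of 0.03 (adjusted p = 0.733) and overlapping groups.

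MAFF, a small MAF protein that pairs with NRF2 and lacks an activation domain of its own, was at 852, 881 and 823 in control cells and 1261, 1213 and 1239 in treated cells. Its groups were well apart, with a log2 change of 0.54 (SE 0.05, 95% interval 0.41 to 0.66, adjusted p = 0.000152). MAFG, the other small MAF measured, went from 1637, 1801 and 1618 to 2480.2, 2579 and 2439. These groups did not overlap either, and the log2 change was 0.57 (SE 0.06, 95% interval 0.43 to 0.71, adjusted p = 0.000234). The further pair of MAFG probe sets moved the same way, by 0.51 and 0.25 on the log2 scale (adjusted p = 0.00126 and 0.0192 over all probe sets).

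Neither KEAP1 nor BACH1, the repressors among the members, passed the test. KEAP1, the adaptor that brings NRF2 to its ubiquitin ligase, was at 1842, 1861 and 1854 in control cells and 2023, 2064 and 2466 in treated cells. The groups did not overlap, EC-70124 replicate 3 being the highest array, but the log2 change of 0.23 (SE 0.08, 95% interval 0.05 to 0.42, adjusted p = 0.0586) missed the threshold. It passed without EC-70124 replicate 1, at an adjusted p of 0.0422. BACH1, which represses HMOX1 and other targets at the same DNA elements, was at 1970.3, 2012 and 1726 in control cells and 1999, 1851 and 1573 in treated cells. These groups overlapped, and the log2 change was -0.08 (SE 0.10, 95% interval -0.31 to 0.15, adjusted p = 0.609).

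**Figure D3:**
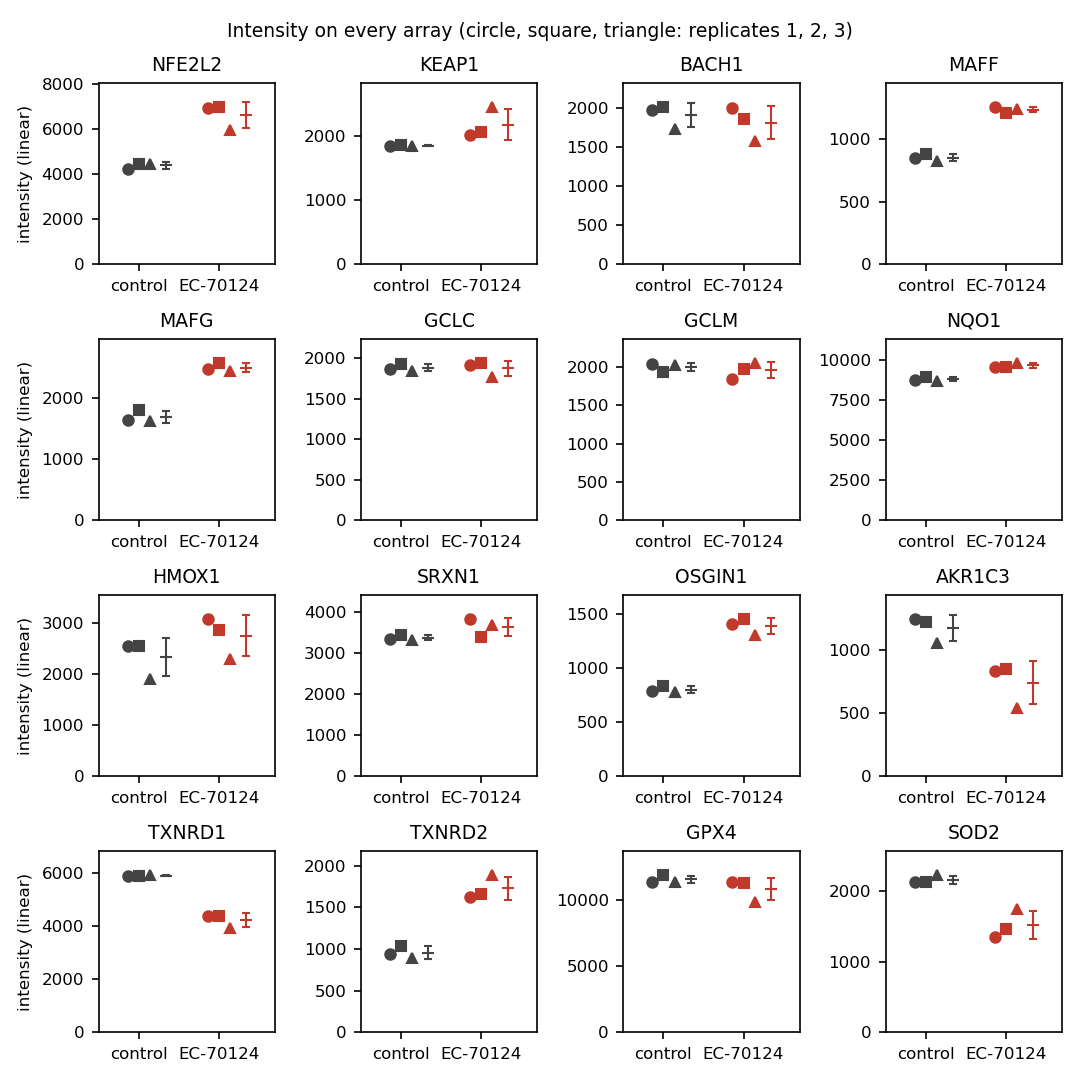
Linear intensity of 16 members on each of the 6 arrays, from 0 upward, with a symbol for each replicate and a bar for the group mean ± SD. NFE2L2, MAFF, MAFG, OSGIN1 and TXNRD2 sit above the controls on all 3 EC-70124 arrays, TXNRD1, SOD2 and AKR1C3 below them, and BACH1, GCLC, GCLM, HMOX1 and SRXN1 show overlapping groups.

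The core of the antioxidant response element reads TGACNNNGC. It was searched on both strands of the RefSeq promoters (GRCh38.p14), each running from 250 bases before to 50 bases after a gene's start, and 4687 of all 35116 promoters (13.3%) held it. Of the 62 promoters matched to 42 measured members, 13 (21.0%) did, against 2832 of the 20109 promoters of genes tested (14.1%). Promoters are shown for MAFF and GSTA4, the members that rose and held a match, and for GCLM, a standard NRF2 target that did not pass the test. TXNRD1, which fell, held a match at both of its starts, and the promoter of 1 start is shown. MGST1, which also fell, held a match and is not shown. The matching bases are in capitals, each sequence is written 5′ to 3′ along the gene's own strand, and a match on the opposite strand appears as its reverse complement.
MAFF, chr22:38201744-38202043, plus strand: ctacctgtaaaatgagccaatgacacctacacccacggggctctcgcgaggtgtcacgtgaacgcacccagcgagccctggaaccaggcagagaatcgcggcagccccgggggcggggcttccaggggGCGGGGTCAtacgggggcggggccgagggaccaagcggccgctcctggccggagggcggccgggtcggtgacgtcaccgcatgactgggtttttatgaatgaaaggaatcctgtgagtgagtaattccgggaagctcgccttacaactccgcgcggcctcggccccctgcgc
GSTA4, chr6:52995235-52995534, minus strand: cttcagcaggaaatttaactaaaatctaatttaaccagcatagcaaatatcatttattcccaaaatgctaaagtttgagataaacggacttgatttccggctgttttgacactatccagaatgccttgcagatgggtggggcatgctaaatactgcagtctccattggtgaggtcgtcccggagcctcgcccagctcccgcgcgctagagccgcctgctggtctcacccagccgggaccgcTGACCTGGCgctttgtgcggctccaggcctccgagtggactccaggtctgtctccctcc
TXNRD1, chr12:104215529-104215828, plus strand: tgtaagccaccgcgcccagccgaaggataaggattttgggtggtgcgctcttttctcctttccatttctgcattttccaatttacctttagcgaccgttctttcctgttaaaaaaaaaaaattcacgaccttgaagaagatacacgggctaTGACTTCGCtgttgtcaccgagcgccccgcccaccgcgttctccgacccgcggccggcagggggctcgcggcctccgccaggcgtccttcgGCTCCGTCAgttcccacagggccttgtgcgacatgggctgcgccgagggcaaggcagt
GCLM, chr1:93909381-93909680, minus strand: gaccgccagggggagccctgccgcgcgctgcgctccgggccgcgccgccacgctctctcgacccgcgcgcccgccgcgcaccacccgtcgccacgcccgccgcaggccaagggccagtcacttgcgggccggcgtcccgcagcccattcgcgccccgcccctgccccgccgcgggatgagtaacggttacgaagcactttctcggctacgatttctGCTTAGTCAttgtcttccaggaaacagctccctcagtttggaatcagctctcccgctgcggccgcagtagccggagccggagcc

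Matches occurred among members of each outcome. The core was in 2 of the 12 promoters of members that rose, 3 of the 16 of members that fell and 8 of the 34 of members that did not pass the test. The match in MAFF lies on the opposite strand and that in GSTA4 on the gene's own strand. A second element, TGATGNAA, which C/EBP and ATF family dimers bind, was found in 1 of the 62 promoters of measured members (1.61%), that of GPX8. It was in 2.67% of the promoters of genes tested and 3.62% of all promoters. NFE2L2, MAFG, OSGIN1 and TXNRD2 held no match to the antioxidant core in these windows, which cover only the bases next to the start. Such matches describe letters, not binding.

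Neither subunit of the first enzyme of glutathione synthesis passed the test. GCLC, the catalytic subunit of glutamate-cysteine ligase and the rate-limiting enzyme of glutathione synthesis, was at 1865, 1927 and 1843 in control cells and 1908, 1941 and 1766 in treated cells. The groups overlapped, with a log2 change of -0.01 (SE 0.06, 95% interval -0.14 to 0.13, adjusted p = 0.951). GCLM, its modifier subunit, whose promoter is shown above, was at 2037, 1935 and 2022 in control cells and 1843, 1973 and 2054 in treated cells. These values overlapped too, and the log2 change was -0.03 (SE 0.06, 95% interval -0.17 to 0.11, adjusted p = 0.742). The 95% intervals of both subunits therefore left out a change of 1.5-fold in either direction.

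GSS, which joins glycine in the last step of synthesis, rose with a log2 change of 0.23 (adjusted p = 0.0088), its mean intensity going from 3758 to 4395. GSR, which uses NADPH to reduce oxidised glutathione, fell by 0.17 on the log2 scale (adjusted p = 0.0403). The GSR call was lost when any 1 of the 6 arrays was left out, with adjusted p-values from 0.0601 to 0.126.

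None of the 5 glutathione peroxidases passed the test, which 34.5% of all genes tested passed. GPX4, the selenoenzyme that reduces lipid peroxides and guards against ferroptosis, was at 11345, 11868 and 11373 in control cells and 11345, 11229 and 9819 in treated cells. The highest treated array stood level with the lowest control array, EC-70124 replicate 3 was the lowest of all, and the log2 change was -0.10 (SE 0.07, 95% interval -0.26 to 0.06, adjusted p = 0.341). GPX1, GPX2, GPX3 and GPX8 had log2 changes of -0.01, 0.02, -0.16 and -0.23, with adjusted p-values of 0.947, 0.906, 0.0568 and 0.0522. GPX8, a peroxidase of the endoplasmic reticulum, passed without EC-70124 replicate 2, at an adjusted p of 0.0113. Both GPX3 and GPX8 passed, as lower, after quantile normalization (adjusted p = 0.00727 and 0.0135), after cyclic loess and when the dimmest genes were left out, and GPX8 also with an offset and with an intensity trend and robust settings. The GPX1 probe sets disagreed, since the second one, not used above, had a log2 change of 0.34 (adjusted p = 0.026 over all probe sets).

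Of the 8 glutathione transferases and microsomal relatives, 1 rose (12.5%) and 3 fell (37.5%), against 19.7% and 14.8% of all genes tested. GSTA4, which conjugates the lipid peroxidation product 4-hydroxynonenal, had a mean of 1185 ± 55.1 in control cells and 1577 ± 123 in treated cells, a log2 change of 0.41 (adjusted p = 0.00278). GSTM3, MGST1 and MGST3 fell by 0.21, 0.24 and 0.30 on the log2 scale, with adjusted p-values of 0.035, 0.00936 and 0.0244. MGST1 and MGST3 are membrane enzymes that also reduce lipid hydroperoxides. GSTM3 lost its call without control replicate 1 or 3 or any 1 EC-70124 array, with adjusted p-values from 0.0502 to 0.128, and MGST3 lost its call without control replicate 2 (0.0636) or control replicate 3 (0.0826). GSTP1, the main transferase of many tumours, had a log2 change of -0.04 (adjusted p = 0.605), and GSTO1, GSTK1 and MGST2 lay at -0.04, 0.15 and 0.05 with no call. GSTK1 passed without EC-70124 replicate 3, at an adjusted p of 0.0232.

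The haem, quinone and aldo-keto enzymes include the targets most used to read out NRF2. Of the 7 measured 2 rose (28.6%) and 1 fell (14.3%), against 19.7% and 14.8% of all genes tested. HMOX1, the inducible haem oxygenase, was at 2552, 2554 and 1912 in control cells and 3084, 2863 and 2305 in treated cells. The groups overlapped, the third replicate was the lowest in both, and the log2 change was 0.24 (SE 0.14, 95% interval -0.09 to 0.56, adjusted p = 0.252). HMOX1 passed, as higher, with the replicate number as a block in the limma fit (adjusted p = 0.0246). HMOX2, the constitutive isoform, rose with a log2 change of 0.23 (adjusted p = 0.0306), its mean going from 3491 to 4074. That call was lost without control replicate 1, control replicate 3, EC-70124 replicate 1 or EC-70124 replicate 2, with adjusted p-values from 0.0745 to 0.0978. The HMOX2 call was also lost after quantile normalization and after cyclic loess.

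NQO1, the quinone reductase, was at 8753, 8965 and 8725 in control cells and 9616, 9605 and 9853 in treated cells, means of 8815 ± 131 and 9691 ± 140.3 (SD, n = 3 each). Every treated value was above every control value, yet the log2 change of 0.14 (SE 0.05, 95% interval 0.02 to 0.25, adjusted p = 0.0715) missed the threshold. It passed when the dimmest genes were left out (adjusted p = 0.0416) and with an intensity trend and robust settings (adjusted p = 0.00439). NQO2, which uses dihydronicotinamide riboside in place of NADPH, had a log2 change of -0.09 (adjusted p = 0.36). OSGIN1, an NRF2 target linked to growth inhibition, was at 787, 836 and 778 in control cells and 1407, 1458 and 1311 in treated cells. The groups were far apart, a 1.74-fold rise with a log2 change of 0.80 (SE 0.06, 95% interval 0.65 to 0.94, adjusted p = 4.77e-05).

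AKR1C3, an aldo-keto reductase that acts on steroids and prostaglandins, was at 1249.8, 1226 and 1061 in control cells and 832, 848 and 545 in treated cells. All treated values were below all control values, with EC-70124 replicate 3 the lowest, and the log2 change was -0.69 (SE 0.16, 95% interval -1.07 to -0.31, adjusted p = 0.0117). AKR1C3 is closely similar in sequence to AKR1C1, AKR1C2 and AKR1C4, which had log2 changes of -0.65, 0.15 and -0.61. AKR1C1 and AKR1C4 passed the test as lower (adjusted p = 0.00215 and 0.0429), and AKR1C2 did not pass (adjusted p = 0.447). A second AKR1C1 probe set, not used above, had a smaller change of -0.22 (adjusted p = 0.0742 over all probe sets). AKR1C4 was at 187 to 434 over the 6 arrays, with overlapping groups. Cross-hybridisation between these genes was not tested. AKR1B10, another member of this enzyme family, was at 85.7 to 119 over the 6 arrays, with a log2 change of -0.13 (adjusted p = 0.464). It passed without control replicate 3, at an adjusted p of 0.0264.

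The thioredoxin system held opposite changes of TXNRD1 and TXNRD2, the reductases among the members. TXNRD1, the cytosolic thioredoxin reductase and a selenoenzyme that NRF2 induces in many cells, was at 5894, 5889 and 5927 in control cells and 4401, 4372 and 3933 in treated cells. The control values were tightly grouped, all treated values lay below them, and the log2 change was -0.48 (SE 0.06, 95% interval -0.62 to -0.34, adjusted p = 0.000525). TXNRD2, the mitochondrial reductase, was at 946, 1039 and 893 in control cells and 1629, 1666 and 1890.3 in treated cells. It rose 1.80-fold with no overlap, a log2 change of 0.85 (SE 0.08, 95% interval 0.66 to 1.04, adjusted p = 0.000124), the largest of the 51 measured members.

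Within each array, the log2 signal of TXNRD2 minus that of TXNRD1 went from -2.62 ± 0.11 in control cells to -1.29 ± 0.21 in treated cells (SD, n = 3 each), a difference of 1.33 with an exact permutation p of 0.1. This is the smallest 2-sided p that 3 arrays against 3 allow, and it became 0.12 when adjusted over the 6 pairs of related members compared. The same p-values held for NFE2L2 minus NFE2L1 (difference 0.57), TXN2 minus TXN (0.32), NQO2 minus NQO1 (-0.23) and SOD2 minus SOD1 (-0.24) by the exact permutation test. HMOX2 minus HMOX1 differed by -0.01 (exact permutation p = 0.9). These pairs were chosen after the values were seen, and no permutation p under 0.1 was possible. A difference describes unequal change of the members on these arrays, not which of them is unchanged.

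The thioredoxins themselves missed the threshold. TXN, the cytosolic form, had a log2 change of -0.15 (adjusted p = 0.0739), and TXN2, the mitochondrial form, one of 0.17 (adjusted p = 0.0641). TXN passed, as lower, after quantile normalization (adjusted p = 0.0342) and cyclic loess, and both TXN and TXN2 passed when the dimmest genes were left out or with an intensity trend and robust settings, TXN2 as higher. TXNIP, which binds and inhibits thioredoxin, had a log2 change of -0.24 (adjusted p = 0.0829). SRXN1, the sulfiredoxin that repairs overoxidised peroxiredoxins and a common NRF2 readout, was at 3348, 3438 and 3324 in control cells and 3831, 3397 and 3692 in treated cells. The groups overlapped, with a log2 change of 0.11 (SE 0.06, 95% interval -0.03 to 0.25, adjusted p = 0.224). GLRX, the cytosolic glutaredoxin that removes glutathione from protein thiols, fell by 0.32 on the log2 scale (adjusted p = 0.00523), its mean going from 6783 to 5448.

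None of the 5 measured peroxiredoxins, which are abundant thiol peroxidases, passed the test that 34.5% of all genes tested passed. Their log2 changes ran from -0.16 for PRDX1 to 0.09 for PRDX2, with PRDX3, PRDX4 and PRDX6 at -0.15, -0.13 and -0.04, and adjusted p-values from 0.112 to 0.639. PRDX1 and PRDX3 passed without EC-70124 replicate 3, at adjusted p-values of 0.0085 and 0.0152.

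SOD1 and SOD2, the superoxide dismutases among the members, fell. SOD2, the manganese enzyme of mitochondria, was at 2122, 2130.3 and 2227 in control cells and 1349, 1460.3 and 1739 in treated cells. The groups did not overlap, and replicate 3 was the highest of the treated arrays. The log2 change was -0.52 (SE 0.09, 95% interval -0.73 to -0.31, adjusted p = 0.00294). SOD1, the copper-zinc enzyme of the cytosol, fell by 0.28 on the log2 scale (adjusted p = 0.00794). SOD3, the extracellular dismutase and no member, had a log2 change of -0.20 (adjusted p = 0.101) with overlapping groups. CAT, which encodes catalase, had a log2 change of -0.02 (adjusted p = 0.887).

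Of the 5 enzymes of NADPH supply and the pentose phosphate pathway, 2 fell (40%, against 14.8% of all genes tested). TALDO1 and TKT, the transaldolase and transketolase of the non-oxidative branch, fell by 0.24 and 0.26 on the log2 scale, with adjusted p-values of 0.00833 and 0.00527. PGD, which makes NADPH in the oxidative branch, had a log2 change of -0.12 (adjusted p = 0.143), and ME1 and IDH1, further cytosolic sources of NADPH, lay at -0.02 and -0.08. FTL, the light chain of the iron store ferritin, had a log2 change of 0.12 (adjusted p = 0.14). PGD and FTL passed without EC-70124 replicate 3, at adjusted p-values of 0.0436 and 0.0424.

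A wider set of 124 genes of the same pathways, none of them a member and also listed with earlier results of these data known, held larger changes. Of its 113 measured genes 26 rose (23.0%) and 31 fell (27.4%), 50.4% in all. Over all genes tested 34.5% passed, with 19.7% higher and 14.8% lower. The set's median log2 change was -0.03, and 9 of its called genes were past 2-fold, against 497 of all 18417 genes tested. Of 21 further NRF2-related genes, 4 rose (19%) and 9 fell (42.9%). The largest changes there were those of ABCC2, an exporter of glutathione conjugates (log2 change 0.75, adjusted p = 0.00123), BACH2, a relative of BACH1 (-0.74, adjusted p = 8.61e-05), and NFE2L3, a relative of NRF2 (-0.72, adjusted p = 0.00121).

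Among 29 further glutathione genes 6 rose (20.7%) and 8 fell (27.6%), against 19.7% and 14.8% of all genes tested. The 3 largest changes were those of CHAC1, CTH and CHAC2. CHAC1, which degrades cytosolic glutathione, went from a mean of 639 ± 19.8 to 4988 ± 845, a log2 change of 2.95, adjusted p = 3.84e-06. Its relative CHAC2 went from 833 to 2159 (1.37, adjusted p = 1.91e-05). CTH, which makes cysteine from cystathionine, went from 1548 to 4562 (1.56, adjusted p = 5.86e-06). Other genes of glutathione breakdown in the list, also named after their values were seen, fell or did not pass. GGCT and GGT5 fell by 0.23 and 0.30 on the log2 scale (adjusted p = 0.0293 and 0.0109), and OPLAH, LAP3, GGT6 and GGT7 did not pass the test, at 0.03, -0.19, -0.07 and 0.14. SLC7A11, the cystine transporter, and its heavy chain SLC3A2, both named here after their values were seen, rose by 0.28 and 1.12 on the log2 scale (adjusted p = 0.00744 and 6.4e-06).

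Among 16 further thioredoxin-related genes 5 rose (31.2%) and 2 fell (12.5%), against 19.7% and 14.8% of all genes tested. The largest changes were those of SESN2, a stress-induced sestrin (log2 change 1.92, adjusted p = 1.99e-05), and ARRDC4, an arrestin-domain relative of TXNIP (1.33, adjusted p = 7.49e-06). GLRX2, the mitochondrial glutaredoxin, came next (1.05, adjusted p = 8.16e-05). Among 17 genes of selenium use and selenoproteins 7 rose (41.2%, against 19.7% of all genes) and 1 fell, with a median log2 change of 0.17. SEPSECS, which makes selenocysteinyl-tRNA, SECISBP2, which directs its use by the ribosome, and SEPHS2, which activates selenium, rose by 0.83, 0.74 and 0.67 on the log2 scale (adjusted p = 0.000148, 6.96e-05 and 0.000152). The gene that fell was SELENON, a selenoprotein of the endoplasmic reticulum (log2 change -0.48, adjusted p = 0.000216), named after its value was seen.

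Among 12 further genes of NADPH supply 3 rose (25%) and 6 fell (50%), against 19.7% and 14.8% of all genes tested. TIGAR, a phosphatase that directs glucose into the pentose phosphate pathway, rose by 1.16 (adjusted p = 5.55e-05), and PGLS, of the oxidative branch, by 0.61 (adjusted p = 0.000169). IDH2, the mitochondrial NADPH-producing isocitrate dehydrogenase, went from 2142 to 1031 (log2 change -1.06, adjusted p = 6.57e-05). Of 10 oxidase genes none rose and 2 fell (20%, against 14.8% of all genes tested). These were the superoxide-producing NOX4 (-0.55, adjusted p = 0.0151) and the oxidase subunit CYBA (-0.29, adjusted p = 0.00773). NOX4 was dim, at 252, 243 and 355 on the control arrays and 183, 203 and 188 on the EC-70124 arrays. NOX1, NOX3, CYBB, NCF4, DUOX1 and XDH were also dim, at 139 to 331 over the 6 arrays. Of 8 iron genes 1 rose (12.5%) and 3 fell (37.5%), against 19.7% and 14.8% of all genes tested. The largest changes were in STEAP3, an endosomal ferrireductase (-0.55, adjusted p = 0.00304), and SLC11A2, an iron transporter (-0.48, adjusted p = 0.00138). NCOA4, the receptor for ferritin breakdown, followed (0.46, adjusted p = 0.000382).

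**Figure D4:**
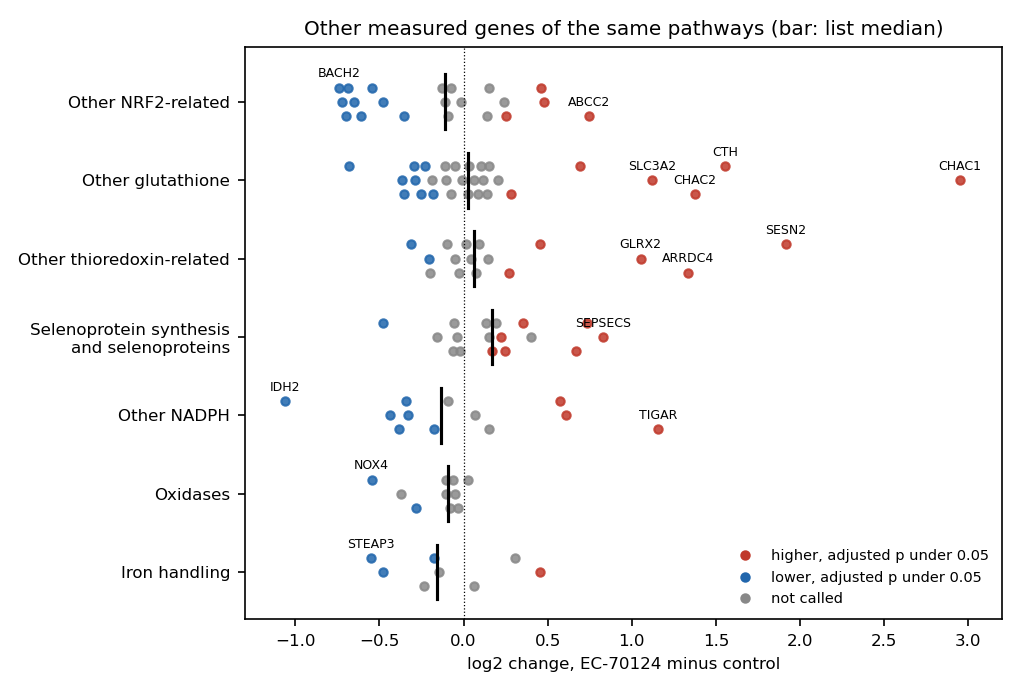
Log2 change of the 113 other measured pathway genes, 1 point per gene, by list, coloured by direction where the adjusted p was under 0.05, with a bar at each list's median. CHAC1 lies farthest to the right at 2.95 and IDH2 farthest to the left at -1.06.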

How the data were processed

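RNA from 6 MDA-MB-231 cultures, 3 control and 3 given EC-70124, was hybridised to 1 array each. The files hold linear intensities that the authors normalized and summarised per probe set in dChip. The dChip version, not given in the sources used here, and any background step are unknown. Of 33252 probe sets, 19460 carried 1 gene symbol, 1754 several and 12038 none in the platform annotation. For each symbol the single-symbol probe set with the highest mean was kept, giving 18417 genes. Intensities were set to at least 1 and log2-transformed, and groups, taken from the sample labels, were compared with limma 3.58.1 (lmFit, then eBayes) under R 4.3.3, with Benjamini-Hochberg adjustment over all genes and a threshold of 0.05. The procedure was tested on simulated data. The number of arrays limits the precision.

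Members and lists were chosen with earlier results of these data known. All measured members were described by role. Values on every array were given for called members with an absolute log2 change of at least 0.5 and for NFE2L2, KEAP1, BACH1, GCLC, GCLM, HMOX1, NQO1, TXNRD1, SRXN1 and GPX4. Of each further list, the 3 called genes with the largest change were named. Alternatives were other normalizations, offsets, filters, probe set rules, limma settings, a plain t-test (named in the study's methods only to score genes for a gene-set analysis), a fold threshold, a replicate block and leaving out each array. Promoter sequences came from RefSeq (GRCh38.p14), and no coordinates of the probe sets were used here.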

Additional observations from a re-analysis of the deposited data

How the results depend on the processing

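The calls of OSGIN1 and TXNRD2 held under all 17 alternatives. Median log2 change of the members was -0.04 as reported, -0.10 after quantile normalization and -0.08 after cyclic loess, and it ran from -0.0677 to -0.0300 when single arrays were left out. With a plain t-test per gene and Benjamini-Hochberg adjustment, 6 members rose and 2 fell, NQO1 among the risers (adjusted p = 0.019), 13 other pathway genes fell, and over all genes 1962 rose and 1280 fell. With a 1.5-fold minimum added to the limma threshold, 3 members rose and 1 fell, 14 other pathway genes rose and 8 fell, and over all genes 1184 rose and 596 fell. Leaving out single arrays gave 7 to 10 members higher and 9 to 12 lower. NFE2L2, GSR, GSTA4, GSTM3, MGST1, MGST3, HMOX2, AKR1C3, TXNRD1, GLRX, SOD1 and SOD2 lost their calls under that adjusted t-test, and MGST3, HMOX2 and AKR1C3 also under the unadjusted one. GSR, GSTM3, MGST3 and HMOX2 lost theirs when all probe sets were tested. Calls were also gained under alternatives. KEAP1 passed in 4, GPX8 in 6, TXN in 5, GPX3 and NQO1 in 4 each, TXN2 and PRDX4 in 3 each, PRDX1, PGD and FTL in 2 each, and GSTK1, GSTP1, HMOX1, AKR1B10, PRDX2 and PRDX3 in 1 each. No call reversed its direction under the alternatives tried. The cause of these shifts was not tested.

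Whether the replicate numbers pair the samples could not be decided from 3 arrays a group. Deviations from the group means correlated at 0.127, -0.0225 and 0.136 for same-numbered arrays. For arrays of different number they correlated at -0.218 to 0.149, and not every array correlated best with its own number. With the replicate number as a block, 9 members rose and 9 fell, 26 other pathway genes rose and 27 fell, and over all genes 3521 rose and 2662 fell. GSR and GSTM3 lost their calls there and HMOX1 gained one (adjusted p = 0.0246, against 0.252 without the block). With 3 arrays a group, changes of the size of NQO1 or KEAP1 fell close to the threshold, and their calls differed between alternatives.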
